A study of Mus musculus with 8 samples.

Results

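The interferon regulatory factors Irf1, Irf2, Irf3, Irf5, Irf7, Irf8 and Irf9, with the transcription factor Stat2 and the interferon receptor subunit Ifnar1, were followed in BV2 cells, an immortalized line of mouse microglia, under oxygen-glucose deprivation. These 9 genes were found by their symbols among 56859 genes of the deposited tables. They were chosen by symbol with the counts and TPM (transcripts per 1000000) of these same libraries already known, so their own levels and differences are given as a description, without p-values. Each of the 8 libraries came from wild-type BV2 cells that had been through deprivation and a return to normal medium, and 10panx1, a peptide that blocks pannexin 1 channels, had been added in 4 of them. At 9 h each treatment had 3 libraries, and at 6 h each had 1. Cells without deprivation and a control peptide were not among the groups. The labels do not say what 6 h and 9 h count from, nor whether replicates were separate cultures, so the spread between replicates may be technical. The treatment label of the 10panx1 library at 6 h leaves out the peptide that its title names, and the title was followed.

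Type I interferons bind a receptor made of Ifnar1 and Ifnar2, whose kinases Jak1 and Tyk2 phosphorylate Stat2. Stat2 and Irf9 are subunits of the complex ISGF3, which binds the interferon-stimulated response element (ISRE). Irf3, Irf7 and Irf5 are switched on by phosphorylation downstream of nucleic acid sensors and Toll-like receptors and drive interferon and cytokine genes. Irf1 activates and Irf2 mostly represses an overlapping set of genes, and Irf8 is a lineage factor that microglia need for their identity and for activation. Much of the control of these proteins is by phosphorylation and movement to the nucleus, which transcript levels do not show.

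Libraries held 18056693 to 23164860 counts, and 3 counts were thus between 0.13 and 0.166 CPM (counts per 1000000 counts). All 9 genes passed the filter on low counts. Of 11 markers of microglia and macrophages 10 had a mean TPM of at least 1, the exception being P2ry12, a marker of resting microglia, at 0 to 0.526 TPM. Tmem119, another of the 11, lay near that limit, at 0.80 to 1.67 TPM. The outlying library was control replicate 3 at 9 h, where 82 genes with 20 counts or more exceeded 10 times their highest count elsewhere. There, 6 hepatocyte markers summed to 299 TPM against at most 1.69 TPM in the other controls at 9 h and 1.15 TPM with 10panx1. Calls at 9 h among the 9 genes and the pathway lists that changed without this library are given both ways, with estimates that moved most. The libraries are bulk RNA, so fewer cells of a kind and less RNA per cell cannot be told apart.

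The promoters of Irf1, Stat2 and Irf2 are shown because these were the genes of the 9 with lower transcript levels in 10panx1 libraries at 9 h. They are RefSeq windows of build GRCm38.p6, each with 250 bases before and 50 after an annotated start, and windows were found for all 9 genes. Capitals mark matches, on either strand, to the ISRE core GAAANNGAAA, to the gamma-activated site TTCNNNGAA and to the kappa-B consensus of NF-kB. The Irf1 window lies at chr11:53769764-53770063, the Stat2 window at chr10:128270248-128270547 and the Irf2 window at chr8:46739495-46739794, all on the plus strand.
Irf1: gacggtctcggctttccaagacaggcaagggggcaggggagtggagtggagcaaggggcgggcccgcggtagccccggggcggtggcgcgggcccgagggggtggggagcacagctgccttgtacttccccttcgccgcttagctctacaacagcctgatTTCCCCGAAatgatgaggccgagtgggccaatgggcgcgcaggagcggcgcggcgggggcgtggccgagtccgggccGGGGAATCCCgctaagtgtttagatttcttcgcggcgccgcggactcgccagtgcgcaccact
Stat2: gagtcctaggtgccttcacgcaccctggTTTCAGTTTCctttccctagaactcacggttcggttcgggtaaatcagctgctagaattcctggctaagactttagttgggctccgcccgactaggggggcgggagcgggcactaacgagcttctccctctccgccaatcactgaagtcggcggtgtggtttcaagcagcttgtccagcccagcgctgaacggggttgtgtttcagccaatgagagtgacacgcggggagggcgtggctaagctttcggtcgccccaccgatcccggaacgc
Irf2: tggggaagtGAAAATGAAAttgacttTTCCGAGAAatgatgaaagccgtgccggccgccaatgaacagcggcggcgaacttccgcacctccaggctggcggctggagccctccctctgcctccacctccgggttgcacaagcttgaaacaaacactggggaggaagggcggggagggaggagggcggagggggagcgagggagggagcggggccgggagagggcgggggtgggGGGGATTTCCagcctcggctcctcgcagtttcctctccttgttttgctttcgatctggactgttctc
Irf1 has another annotated start, whose window at chr11:53770223-53770522 held none of the motifs. With the start base counted as 0, the printed Irf1 window held a gamma-activated site match at -90 to -82 and a kappa-B match at -13 to -4. The Stat2 window held an ISRE match at -222 to -213, on the minus strand, and neither of the other motifs. The Irf2 window held an ISRE match at -241 to -232, a gamma-activated site match at -224 to -216 and a kappa-B match at -17 to -8. Across the 9 genes, an ISRE match was found for 2, a gamma-activated site match for 4 and a kappa-B match for 2. Counted the same way, with a match in any window of a gene, 3.99% of 27025 genes held the ISRE core, 9.55% the gamma-activated site and 9.55% the kappa-B consensus. Per window, of 32851, the shares were 3.44%, 8.30% and 8.46%. No motif was matched in all 3 genes with lower levels. The ISRE core was matched in Stat2 and Irf2 and the kappa-B consensus in Irf1 and Irf2, and neither in the other members. The gamma-activated site was matched in Irf1 and Irf2, and also in Irf8 and Ifnar1. Whether a motif bears on these levels was not tested. A match is letters in a window and not a bound site.

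The comparison at 9 h set deprivation with 10panx1 against deprivation alone, the contrast from which the study sought pathways linked to Src. Irf1 lay about 2.09-fold lower with the peptide, Stat2 1.35-fold lower and Irf2 1.26-fold lower, while Ifnar1, Irf3, Irf5, Irf7, Irf8 and Irf9 overlapped between the groups. In the fit across all genes 3 of the 9 genes were called, all of them lower. Over the 13392 genes tested 9.21% were called and 4.14% were called lower. Since the genes were listed with this contrast known, nothing is read from that count. The share of all genes whose groups did not overlap was not counted, so nothing is read from the separation either. The median log2 difference of the 9 genes was -0.03, against -0.00 over all genes tested. Without control replicate 3 the median of the 9 genes was -0.09.

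**Figure D1:**
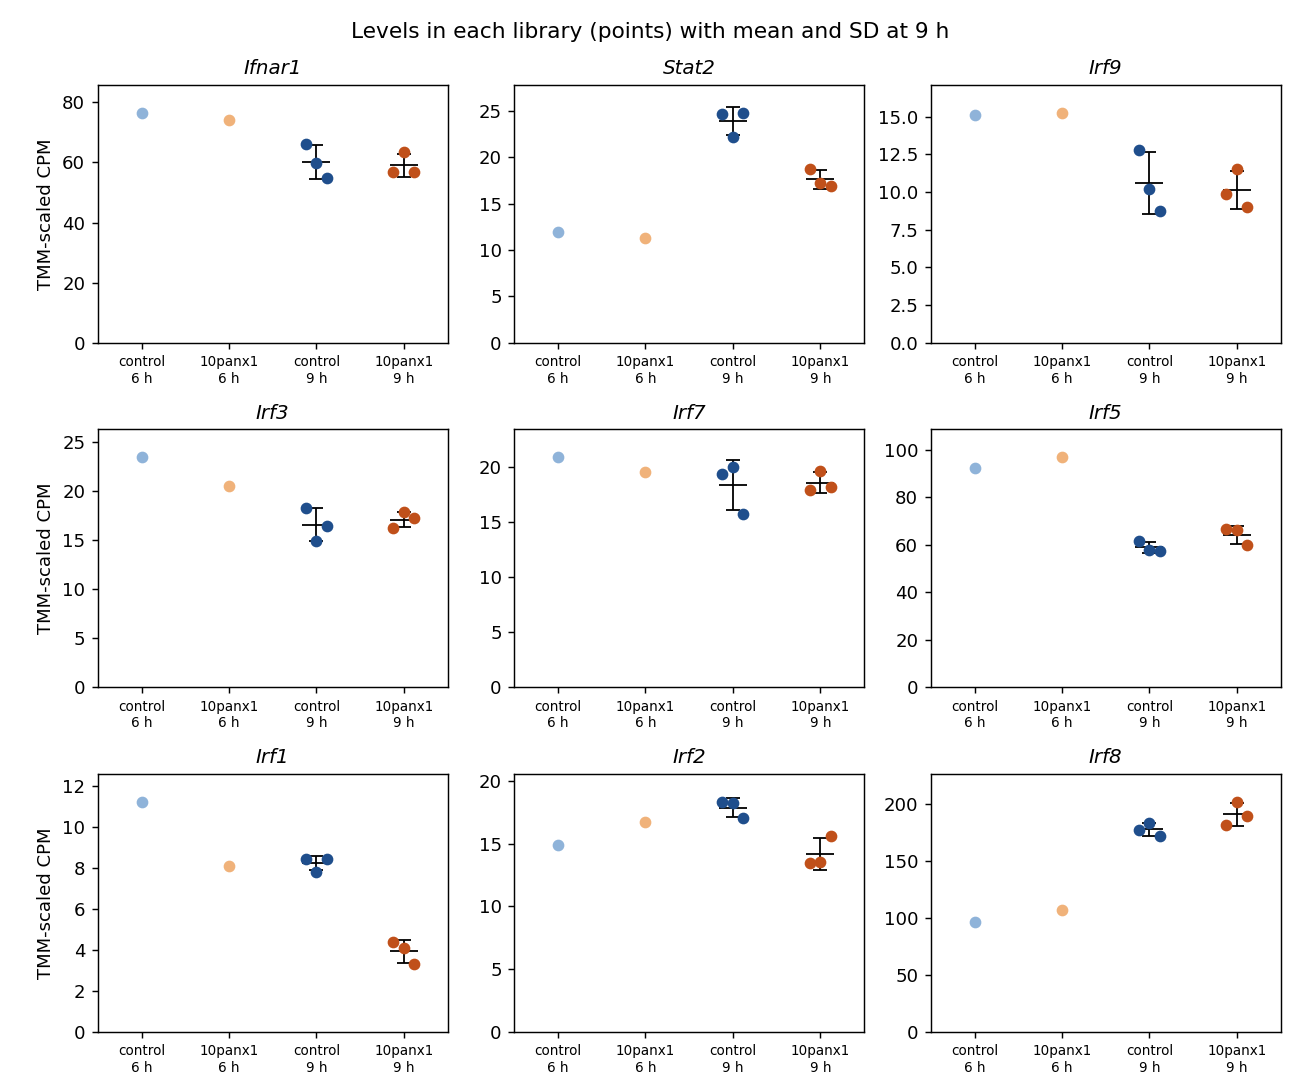
TMM-scaled CPM of the 9 genes in each library. Points are libraries, with the mean and SD (n = 3) at 9 h, and single libraries at 6 h. In the panels of Irf1, Stat2 and Irf2 the control and 10panx1 libraries at 9 h do not overlap.

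Of the receptor and ISGF3 genes, Ifnar1, the receptor subunit that binds Tyk2, lay at 66.1, 59.9 and 54.7 CPM in the controls and at 56.7, 63.4 and 57.0 CPM with 10panx1. The groups overlapped, and the log2 difference was -0.03 with a standard error of 0.073. Stat2, the ISGF3 subunit with the strong activation domain, lay at 24.7, 22.2 and 24.8 CPM in the controls and at 18.8, 17.2 and 16.9 CPM with the peptide. Each 10panx1 library was below each control library, with a log2 difference of -0.44 and a standard error of 0.083. Over 16 alternative settings on the same libraries the estimate ran from -0.49 to -0.40. Irf9, the DNA-binding subunit of ISGF3, lay at 12.8, 10.2 and 8.75 CPM in the controls and at 9.89, 11.5 and 9.03 CPM with 10panx1. Control replicate 1 held the highest value and control replicate 3 the lowest, and the log2 difference was -0.06 with a standard error of 0.142. Without control replicate 3 the difference of Irf9 was -0.18. Of these 3 genes Stat2 was the one whose groups did not overlap.

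Of the factors activated by pathogen sensing, Irf3, which is made constitutively, lay at 18.3, 14.9 and 16.5 CPM in the controls and at 16.2, 17.8 and 17.3 CPM with 10panx1, with a log2 difference of 0.05 and a standard error of 0.094. Irf7, the amplifier of interferon alpha production, lay at 19.4, 20.1 and 15.8 CPM in the controls and at 17.9, 19.7 and 18.2 CPM with the peptide. Its log2 difference was 0.02 with a standard error of 0.097, and the lowest value was in control replicate 3. Without that library the difference of Irf7 was -0.08. Irf5, which relays Toll-like receptor signals to inflammatory cytokine genes, lay at 61.6, 57.7 and 57.4 CPM in the controls and at 66.7, 66.3 and 59.9 CPM with 10panx1. All but 1 of the 10panx1 libraries exceeded the controls, and the log2 difference was 0.13 with a standard error of 0.062. For these 3 genes the libraries overlapped between the groups and none was called. A p above the threshold does not show equal levels, and the standard errors give the precision reached.

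Irf1 lay at 8.45, 7.82 and 8.44 CPM in the controls and at 4.40, 4.08 and 3.31 CPM with 10panx1. The lowest control was well above the highest 10panx1 library, and the log2 difference was -1.07 with a standard error of 0.147. These levels rested on 160 to 178 counts per control library and 74 to 93 counts per 10panx1 library. Over 16 alternative settings on the same libraries the estimate for Irf1 ran from -1.16 to -0.93. Irf2, the antagonist of Irf1, lay at 18.4, 18.3 and 17.0 CPM in the controls and at 13.4, 13.5 and 15.6 CPM with the peptide. Every control was above every 10panx1 library, by the least margin between control replicate 3 and 10panx1 replicate 3, and the log2 difference was -0.33 with a standard error of 0.092. The call of Irf2 was lost in 7 of 16 alternatives although its estimate stayed between -0.41 and -0.29. These were both fits on TPM and the fits without control replicate 1 (log2 difference -0.31), control replicate 2 (-0.32), control replicate 3 (-0.37), 10panx1 replicate 1 (-0.29) or 10panx1 replicate 2 (-0.30).

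In the coordinates of the deposited table, which names no build and does not follow GRCm38, Irf1 (ENSMUSG00000018899) spans chromosome 11 from 53660841 to 53669200. Stat2 (ENSMUSG00000040033) spans chromosome 10 from 128106428 to 128128718 and Irf2 (ENSMUSG00000031627) chromosome 8 from 47192767 to 47300493. All 3 are protein-coding genes on the plus strand. Because Irf1 is the activator and Irf2 the repressor of a shared motif, their TPM, which are per length, were set side by side. At 9 h the TPM ratio of Irf1 to Irf2 was 0.854, 0.795 and 0.920 for controls and 0.608, 0.562 and 0.392 with 10panx1. At 6 h this ratio was 1.40 without and 0.893 with the peptide. At both times the peptide libraries had the lower ratio.

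Irf8 was the most abundant of the 9 genes at 9 h. It lay at 178, 183 and 172 CPM in the controls and at 182, 202 and 189 CPM with 10panx1, with a log2 difference of 0.11 and a standard error of 0.050. The highest control exceeded the lowest 10panx1 library.

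Some of these genes share bases with a neighbour, and the strand setting of the counting is not given in the sources used here. Irf5 overlaps Tnpo3 on the opposite strand by 1045 bases, Irf3 overlaps Bcl2l12 on the opposite strand by 1065 bases and Irf7 overlaps Phrf1 on the opposite strand by 45 bases. Irf9 overlaps Rnf31 on its own strand by 123 bases, and reads from those bases may have gone to either gene. Over the 8 libraries together Tnpo3 held 17638 counts against 11667 for Irf5, and Phrf1 17779 against 3172 for Irf7. Rnf31 held 4670 against 1935 for Irf9, and Bcl2l12 114 against 3034 for Irf3. The genes over Irf1 and Irf2 held between 4 and 12 counts in all 8 libraries together, and Stat2, Ifnar1 and Irf8 overlapped no other gene.

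At 6 h each group was 1 library, so the differences have no replicate check. Irf1 lay at 11.2 CPM without and 8.06 CPM with the peptide, a log2 ratio of -0.47, the lowest of the 9 genes. Irf2 lay at 14.9 CPM without it and 16.8 CPM with it, a log2 ratio of 0.17, opposite in sign to its difference at 9 h. Stat2 lay at 11.9 and 11.4 CPM, with a log2 ratio of -0.07, so the separation seen at 9 h was not seen in this pair. Irf3 lay at 23.5 and 20.5 CPM with a log2 ratio of -0.20, and Irf8 at 96.4 and 107 CPM with a log2 ratio of 0.15. The ratios of the other members ran from -0.10 for Irf7 to 0.07 for Irf5. The central 90% of log2 ratios over the 13392 genes lay between -0.55 and 0.53, and every one of the 9 ratios fell within it. This spread covers genes of all levels and was not matched to the level of each gene, so it does not show whether a ratio is unusual. The sign was the same at 6 h and 9 h for 5 of the 9 genes and for 61.8% of all genes.

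Whether the 10panx1 difference changed between 6 h and 9 h was tested over all genes as an interaction. It called 0 of 15331 genes (0%) with edgeR, 874 had an unadjusted p under 0.05, and DESeq2 also called 0. The interaction estimates (9 h minus 6 h) were -0.59 with a standard error of 0.251 for Irf1, -0.50 with 0.186 for Irf2 and -0.37 with 0.186 for Stat2. For the other 6 genes they lay between -0.08 and 0.24. Each treatment had 1 library at 6 h, so the spread in this fit came from the 9 h replicates and the 6 h libraries were assumed to vary alike.

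**Figure D2:**
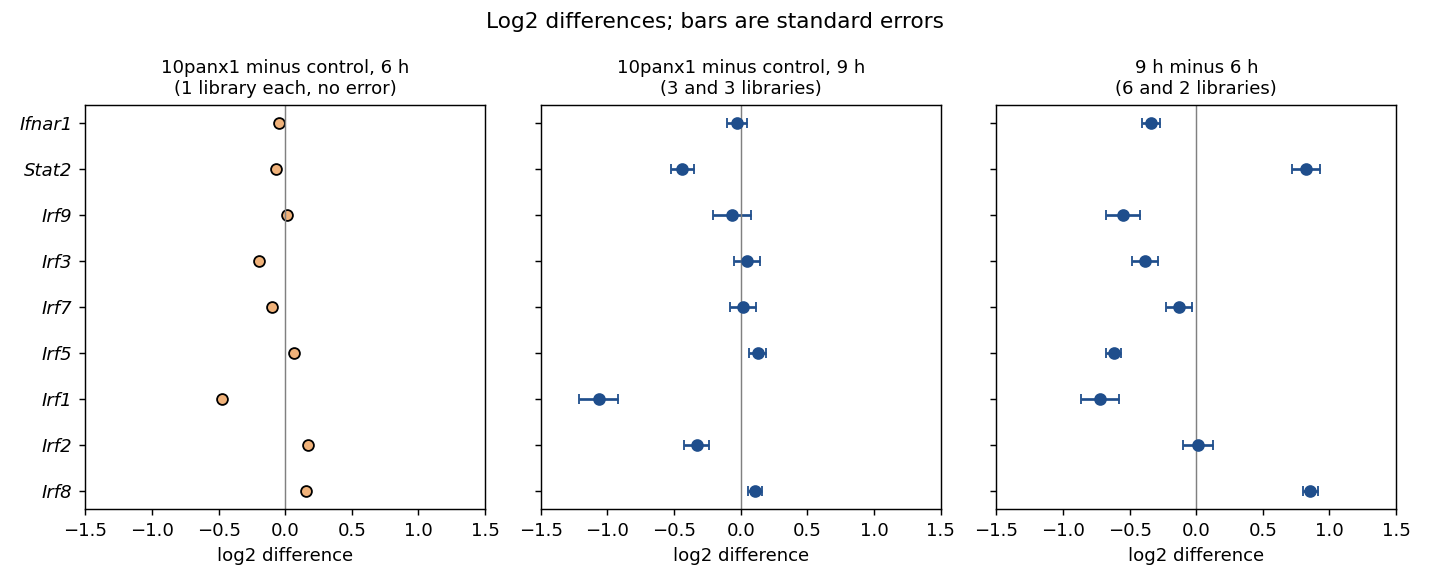
Log2 differences of the 9 genes between 10panx1 and control at 6 h (single libraries, no error) and at 9 h, and between 9 h and 6 h over both treatments. Bars are standard errors. Irf1 lies lowest in each of the 10panx1 panels, and Stat2 and Irf8 lie highest in the panel of time.

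Time was compared between the 6 later and the 2 earlier libraries, adjusting for treatment. Irf8 and Stat2 were higher at 9 h and Irf1, Irf5, Irf9, Irf3 and Ifnar1 were lower, whereas Irf2 and Irf7 were not called. In the fit across all genes 59.8% of 15331 genes were called, 30.3% higher and 29.6% lower. Of the 9 genes 7 were called, 2 higher and 5 lower, and nothing is read from that count. The labels give no batch, and time and a batch cannot be told apart. In the fit on log2(TPM + 1) the median of all genes shifted to -0.11 from 0.01, and the calls were 3062 higher and 5073 lower against 4643 and 4532. The mitochondrial share of counts was 1.43% and 1.51% at 6 h and ran from 1.14% to 1.28% later, and their part in these differences was not tested.

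Irf8 lay at 96.4 and 107 CPM at 6 h and at 184 ± 10.5 CPM (SD, n = 6) at 9 h, a log2 difference of 0.86 with a standard error of 0.053. Stat2 lay at 11.9 and 11.4 CPM at 6 h and at 20.8 ± 3.62 CPM (SD, n = 6) at 9 h, a log2 difference of 0.83 with a standard error of 0.105. For both genes every library at 9 h, with or without the peptide, exceeded both libraries at 6 h. The 10panx1 libraries at 9 h lay between the levels of Stat2 at 6 h and those of the controls at 9 h. The SDs at 9 h include the treatment difference.

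Irf5 lay at 92.3 and 96.9 CPM at 6 h and at 61.6 ± 4.06 CPM (SD, n = 6) at 9 h, a log2 difference of -0.62 with a standard error of 0.057. Irf9 lay at 15.1 and 15.3 CPM at 6 h and at 10.4 ± 1.55 CPM at 9 h, a log2 difference of -0.55 with a standard error of 0.128. Ifnar1 lay at 76.6 and 74.2 CPM at 6 h and at 59.6 ± 4.38 CPM at 9 h, with a log2 difference of -0.34. Irf3 had a log2 difference of -0.39. Libraries of the 2 times did not overlap for these 4 genes. The share of all genes whose times separated was not counted. Nothing is thus read from this separation, nor from that of Irf8 and Stat2. The call of Irf3 was lost without the control library at 6 h, where its log2 difference was -0.26. Irf1 was called lower, with a log2 difference of -0.72 and a standard error of 0.143, but its times overlapped, since the 10panx1 library at 6 h (8.06 CPM) lay among the controls at 9 h. The value rested on the 6 h library kept, at -0.46 without the 10panx1 library and -1.04 without the control library of that time. Irf7 lay at 20.9 and 19.6 CPM at 6 h and at 18.5 ± 1.58 CPM at 9 h, and Irf2 at 14.9 and 16.8 CPM at 6 h and at 16.0 ± 2.22 CPM at 9 h, both with overlap. The 2 subunits of ISGF3 among these genes had opposite differences with time. The TPM ratio of Stat2 to Irf9 was 0.694 and 0.654 at 6 h and between 1.31 and 2.50 at 9 h.

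Levels between genes were compared per length, as TPM. In the controls at 9 h the order was Irf8 (129.5 TPM), Irf5 (66.6), Ifnar1 (38.99), Irf3 (20.6), Irf7 (14.4), Stat2 (13.8), Irf2 (11.4), Irf1 (9.76) and Irf9 (6.93). Neighbours in this order had separate ranges over the 3 libraries, except Irf7 and Stat2, which overlapped. With 10panx1 at 9 h Irf1 moved to the lowest place, at 4.68 TPM, below Irf9 at 6.67 TPM, and only Stat2 and Irf2 overlapped as neighbours. At 6 h Irf5 stood first, at 113 TPM in the control and 119 TPM in the 10panx1 library, above Irf8 at 75.9 and 84.8 TPM, and Stat2 stood last, at 7.41 and 7.08 TPM.

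The summed TPM of the 7 Irf genes ran from 249.9 to 284.9 TPM over the libraries, at 273 and 280.3 TPM at 6 h, 259 ± 9.71 TPM (SD, n = 3) in the controls at 9 h and 269 ± 13.8 TPM (n = 3) with 10panx1. Its make-up differed with time. Irf5 took 41.2% and 42.3% of the sum at 6 h and between 25.0% and 28.7% at 9 h. Irf8 took 27.8% and 30.2% at 6 h and between 48.5% and 52.8% at 9 h. The TPM ratio of Irf8 to Irf5 was 0.674 and 0.715 at 6 h and 1.95 ± 0.097 (n = 3) in the controls and 1.92 ± 0.143 (n = 3) in the 10panx1 libraries at 9 h. The balance of these genes thus differed between the times in both treatments. Irf1 took 3.77% ± 0.228 (SD, n = 3) of the sum in the controls at 9 h and 1.74% ± 0.243 (n = 3) with 10panx1.

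**Figure D3:**
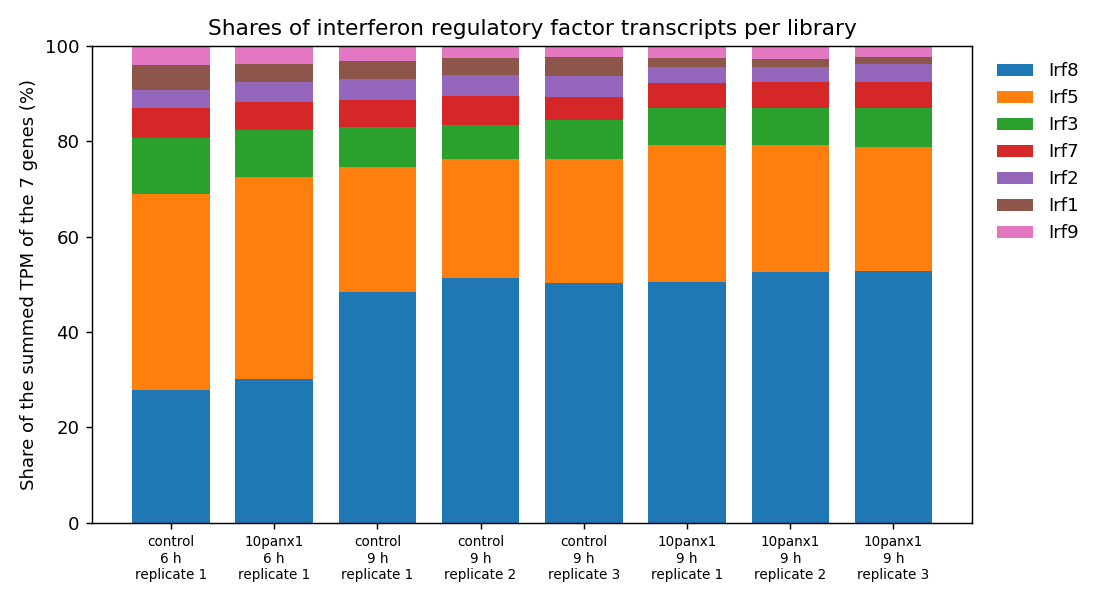
Share of the summed TPM of the 7 Irf genes taken by each gene, for each library. Irf5 takes the most at 6 h (41.2% and 42.3%) and Irf8 at 9 h (48.5% to 52.8%), with and without the peptide.

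Likeness of pattern was measured as Pearson's r of log2 CPM over the 8 libraries against 10699 genes with a mean of at least 50 counts. The genes most like Irf1 were Ranbp1 (r = 0.99), 5031439G07Rik (0.99) and Sf1 (0.99), although their log2 differences at 9 h were smaller, at -0.23, -0.26 and -0.14. Those most like Stat2 were Plk3, Trim62 and Spring1 (each 0.99), with log2 differences at 9 h of -0.34, -0.36 and -0.28. Those most like Irf2 were Hsf2 (0.97), mt-Co1 (0.95) and Cdc42ep3 (0.95). The libraries share depth and time between genes, and each is 1 of 8 points. Among the 36 pairs of the 9 genes r ran from -0.91, between Stat2 and Irf5, to 0.99, between Ifnar1 and Irf9, and 9 pairs exceeded 0.7.

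Other genes of the pathway were counted from 7 lists of 154 entries, which do not hold the 9 genes. They were tested at 9 h in the same fit, where 9.21% of all genes were called, 5.06% higher and 4.14% lower. Of 119 tested list genes 13 rose and 2 fell, and their median log2 difference was 0.05. Without control replicate 1 or 10panx1 replicate 2 the count was 7. Without control replicate 3 it was 9 and the calls of Sting1, Socs1, Isg20, Ifi204, Cd69 and Ptgs2 were lost. Between the times 30.3% of all 15331 tested genes were called higher and 29.6% lower. The counts over time in each list below stand beside these shares, and nothing is read from them.

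**Figure D4:**
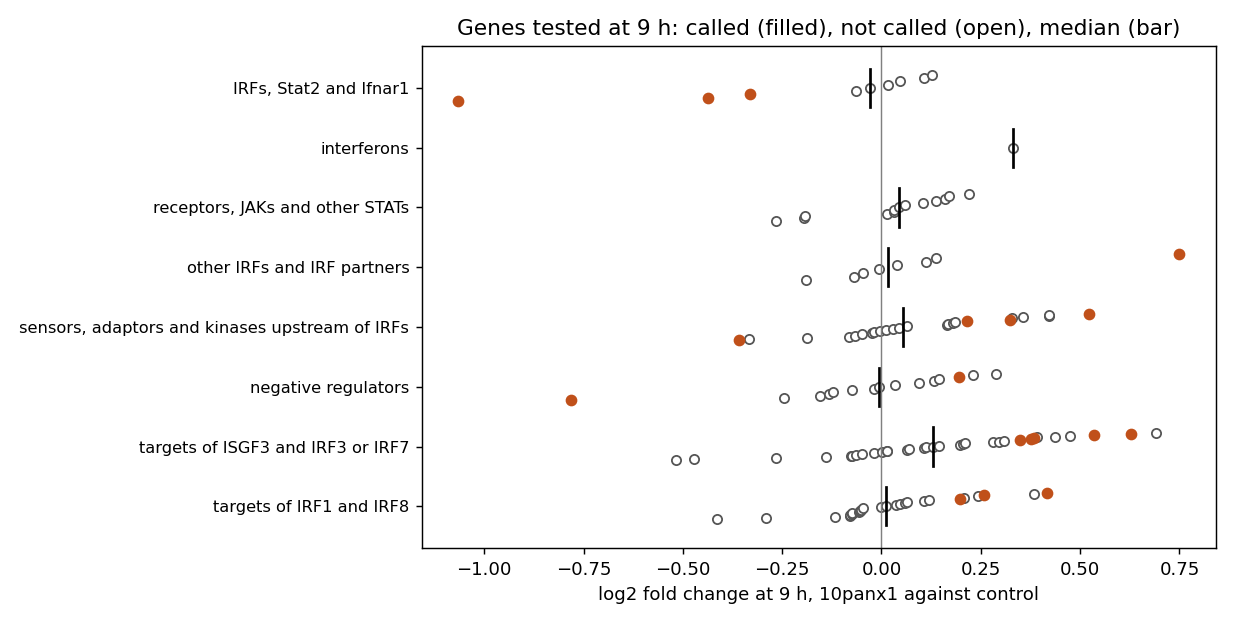
Log2 fold changes at 9 h of the 9 genes and of the tested genes of 7 pathway lists. Points are genes, filled where called by edgeR, and bars are medians. Irf1 lies lowest, and 5 of 33 target genes of ISGF3 and Irf3 or Irf7 are called higher with none lower.

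The interferons were hardly detected. Of 21 interferon genes 15 had no count in any library, which allows up to 3 counts per library, and 4 others had at most 4 counts in a library. Ifnb1, the interferon beta gene, had from 2 to 7 counts per library at 9 h and 0 and 1 count at 6 h. Ifnab, an interferon alpha gene, had 12, 13 and 6 counts in the controls at 9 h, 15, 12 and 14 counts with 10panx1, and 0 counts in both libraries at 6 h. Its level of 0.57 ± 0.134 CPM (SD, n = 6) at 9 h was at least 3.43-fold higher than the level of 3 counts per library at 6 h. It passed the filter on low counts through the 9 h libraries, so no p is given for this difference. Its difference with 10panx1 was not called (edgeR, adjusted p = 0.657). Interferon alpha genes are near-identical copies and how shared reads were counted is not given, so values of single copies are uncertain.

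Of 13 tested receptor subunits, JAK kinases and other STATs none was called at 9 h by edgeR, against 3 with an unadjusted p under 0.05 and 0 by DESeq2, and their median log2 difference was 0.04. Jak1 and Stat6, the most abundant by TPM, had log2 differences of 0.03 and 0.10. Between the times 4 rose and 5 fell of 14 tested. Ifngr2, a subunit of the interferon gamma receptor, lay at 72.4 and 74.6 CPM at 6 h and at 33.7 ± 2.73 CPM (SD, n = 6) at 9 h (edgeR, adjusted p = 9.33e-09). Jak1 and Jak2 rose by 0.32 and 0.55 on the log2 scale.

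Of 8 tested partners and other members of the Irf family 1 rose at 9 h and none fell. Irf2bpl, a relative of the Irf2 corepressors, lay at 60.4, 76.6 and 72.4 CPM in the controls and at 81.4, 151.7 and 118.5 CPM with 10panx1 (log2 difference 0.75, standard error 0.155, edgeR, adjusted p = 0.00837). The groups did not overlap, and the 10panx1 libraries spread widely. Spi1, which encodes PU.1, the DNA-binding partner of Irf4 and Irf8, was not called at 9 h (log2 difference 0.14, edgeR, adjusted p = 0.154). Over time 4 of 10 rose and 4 fell. The risers include Batf, which had at most 10 counts in a library and was not tested at 9 h, so nothing is read from its rise. Spi1 fell, from 179 and 192 CPM at 6 h to 103 ± 7.44 CPM (SD, n = 6) at 9 h, while its partner gene Irf8 was higher. Irf4, at 1.75 and 1.86 CPM at 6 h and 3.76 ± 0.412 CPM at 9 h, and the coactivator Crebbp, which rose by 0.82 on the log2 scale, were higher at 9 h.

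Of 24 tested sensors, adaptors and kinases upstream of the Irf proteins 3 rose and 1 fell at 9 h. Tlr7, an endosomal receptor for single-stranded RNA, lay at 50.9, 52.0 and 53.0 CPM in the controls and at 68.2, 75.6 and 79.8 CPM with 10panx1 (log2 difference 0.52, standard error 0.065, edgeR, adjusted p = 0.00106). Every 10panx1 library was above every control. Tbkbp1, an adaptor of the kinase Tbk1, rose by 0.32 and Sting1, the adaptor of the DNA-sensing pathway, by 0.22 on the log2 scale. Cgas, the DNA sensor that signals to Sting1, fell from 41.2 ± 3.58 CPM (SD, n = 3) to 32.1 ± 2.07 CPM (n = 3), so that sensor and adaptor differed in direction. Without control replicate 3 Cgas was still called and Sting1 was not. Tank and Trim25, the most abundant of the list, had log2 differences of -0.05 and -0.00 and were not called. Over time 2 rose and 12 fell. Tlr3, at 8.17 and 5.31 CPM at 6 h and 1.91 ± 0.468 CPM (SD, n = 6) at 9 h, and Tlr4, with a log2 difference of -1.10, fell, and Traf6 rose by 0.53 on the log2 scale.

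Of 15 tested negative regulators 1 rose and 1 fell at 9 h. Socs1, an inhibitor of JAK kinases, lay at 5.12, 3.67 and 4.48 CPM in the controls and at 2.37, 1.87 and 3.44 CPM with 10panx1 (log2 difference -0.78, standard error 0.224, edgeR, adjusted p = 0.0412). The groups came close, and its log2 ratio at 6 h was 0.57, the other way. Ptpn11, the SHP-2 phosphatase, rose by 0.20 on the log2 scale. Ptpn6 and Socs3 differed by 0.13 and 0.23 on the log2 scale and were not called (edgeR, adjusted p = 0.161 and 0.0964). Over time 5 rose and 5 fell. Socs3, which limits interleukin 6 signalling, lay at 116 and 128 CPM at 6 h and at 51.0 ± 6.41 CPM (SD, n = 6) at 9 h, while Ptpn2, a phosphatase of JAK and STAT proteins, rose by 1.09 on the log2 scale.

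Among 33 tested targets of ISGF3 and of Irf3 or Irf7, 5 rose at 9 h and none fell. Their median log2 difference was 0.13 and 24 of 33 lay at or above 0. Over all genes the median was -0.00 and 6569 of 13392 lay at or above 0. Stat2 itself was lower, and whether its level bears on these genes was not tested. Samd9l, an antiviral restriction factor, lay at 24.6, 30.4 and 24.8 CPM in the controls and at 36.6, 45.9 and 40.9 CPM with 10panx1 (log2 difference 0.63, standard error 0.098, edgeR, adjusted p = 0.00207). Oasl1, which restrains translation of Irf7 in mouse cells, lay at 103.5, 118.4 and 110.4 CPM in the controls and at 130, 148 and 144 CPM with 10panx1 (log2 difference 0.35, edgeR, adjusted p = 0.0035). Neither gene overlapped between the groups. Cd69, an activation antigen, and Isg20, an exonuclease, rose by 0.53 and 0.38 on the log2 scale. Ifi204, which has close relatives in its gene family and is named here after its value was seen, rose by 0.38. Without control replicate 3 only Samd9l and Oasl1 of this list were called and the list median was 0.06. Bst2, the most abundant by TPM, had a log2 difference of -0.14 and was not called. Over time 11 rose and 7 fell, with Cxcl10 at 9.44 and 10.3 CPM at 6 h and at 35.2 ± 2.75 CPM (SD, n = 6) at 9 h, and Rsad2 and Oasl1 higher by 1.37 and 0.81 on the log2 scale.

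Of 25 tested targets of Irf1 and Irf8 3 rose at 9 h and none fell, with a median log2 difference of 0.01. Without control replicate 3 the list median was -0.06. Nos2, the inducible nitric oxide synthase and a target of Irf1 in mouse macrophages, lay at 1293, 1407 and 1420.3 CPM in the controls and at 1596, 1987 and 1909 CPM with 10panx1 (log2 difference 0.42, standard error 0.068, edgeR, adjusted p = 0.00241). Irf1 was lower in the same libraries, and a link between these levels was not tested. Ptgs2, the inducible cyclooxygenase, and Csf1r, the receptor of colony stimulating factor 1, rose by 0.26 and 0.20 on the log2 scale. B2m, the light chain of MHC class I and the most abundant of the list by TPM, had a log2 difference of -0.05 (edgeR, adjusted p = 0.71). Over time 8 of 26 rose and 9 fell. Cd274, which encodes PD-L1, rose from 15.4 and 18.4 CPM at 6 h to 71.5 ± 3.07 CPM (SD, n = 6) at 9 h, and Ptgs2 rose by 1.79 on the log2 scale. Cd180, a Toll-like receptor relative, fell from 158 and 172 CPM to 57.4 ± 3.71 CPM. The list genes named for time, Ifnab left out, had edgeR adjusted p values from 3.12e-11 to 0.000246.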

How the data were processed

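Poly(A)-selected RNA of 8 BV2 libraries was sequenced after a directional library kit, per the labels' protocols. Read counts per gene were deposited by the authors as whole numbers, beside TPM that the authors scaled to 1000000 per library over unique symbols. FastQC, Trimmomatic, STAR, featureCounts, DESeq2 and GRCm38 are named without roles, per the submitters' processing notes. Only 0.763% of 37507 genes start where GRCm38 places them, so table coordinates carry no build. Of 57010 rows 151 repeats with identical values were dropped.

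The main test was the quasi-likelihood test of edgeR 4.0.16 under R 4.3.3, on counts scaled by TMM and filtered by filterByExpr. P-values were adjusted by Benjamini-Hochberg over all tested genes and called below 0.05. Only the 6 libraries at 9 h entered the 10panx1 comparison, without a block, and time and the interaction used 8 libraries with treatment as a covariate. Standard errors come from the quasi-likelihood statistic. Printed CPM are TMM-scaled over the 8 libraries, with a prior count of 2 in the log2 ratios of the 6 h pair. The code was tested on simulated counts. Of the replicate pairs within each group at 9 h none was a repeat (chi-square per degree of freedom, lowest 4.03, highest 7.04).

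The members, the lists and the tests were chosen with earlier results of these data known. All 154 list entries matched by symbol. One result is not reported here. From each list the rule named up to 4 genes called at 9 h and up to 3 called over time by smallest p, and the 2 highest by TPM. For likeness it named the 3 nearest genes of each of the 3 members with the greatest difference at 9 h. Alternatives were RLE and upper quartile scaling, no filter or at least 50 mean counts, limma 3.58.1 on voom weights or on log2 TPM (pseudocount 1 or 0.1, mean TPM of at least 1), DESeq2 1.42.0, all 8 libraries, a replicate block and each library left out. Tables and plots used Python 3.11.15, pandas 2.3.3 and matplotlib 3.10.9.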

Additional observations from a re-analysis of the deposited data

How the results depend on the processing

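At 9 h 1233 genes were called. The count was 368 and 371 with limma on log2(TPM + 1) and log2(TPM + 0.1), and from 598 to 1433 when each library was left out (598 and 695 without control replicate 1 and 2, 676 and 600 without 10panx1 replicate 2 and 3). Pathway list genes called at 9 h numbered 15, then 6 in both TPM fits, and from 7 to 16 with each library left out (7 without control replicate 1 or 10panx1 replicate 2, 9 without control replicate 3). Deviations of same-numbered libraries correlated at 0.094, -0.007 and 0.074, and those of differently numbered ones from -0.112 to 0.042. All were small, but they do not settle whether the numbers mark pairs, and the main fit did not take them as pairs. A fit with the replicate block called 1850 genes, 21 list genes and the same 3 members, Irf1, Stat2 and Irf2. The interaction called 34 genes without a filter, and from 0 to 1 with each 9 h library left out, none of them a member. Between 9 h and 6 h the counts of genes, members and list genes stayed within 1.5 times of the main counts in all 12 alternatives. Of 144 member estimates at 9 h under alternatives 6 changed sign, in 4 members that were not called, and over time 5 of 108 did, all of Irf2. Members at under 20 CPM, such as Irf1 and Irf9, carry the widest standard errors. Why counts moved with a setting was not tested.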
